A study of Mus musculus with 12 samples.

Results

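The genes described here belong to the ribonuclease A family, small secreted proteins that cut RNA. They were found as every probe set that the platform annotation gives to Rnase2a, Ear3, Ear2, Rnase4 or Ang alone. That rule found 6 probe sets of the 45101 on the array, covering 4 of the 5 genes named and 4 of the 18193 genes with a probe set of their own, with 1 probe set each for Rnase2a, Ear3 and Rnase4 and 3 for Ang. Ear2 is not analysed here. The genes were chosen by measured values of these arrays, their falls with Ro and the strain difference of Ang, so values of those contrasts are given as a description without a test. All 6 probe sets passed the filter on low signal, and the 4 genes stood among 12429 genes tested.

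RNA came from 12 cultures of mouse marrow cells, labelled dendritic cells and grown in 20 ng/ml GM-CSF over 10 days, from mice aged 6 to 8 weeks, and each culture was read on 1 Affymetrix array. The 6 conditions were no retinoid (control), all-trans retinoic acid (RA, 10 nmol/ml in the treatment labels) and the retinoic acid receptor alpha antagonist Ro41-5253 (Ro, 100 nmol/ml), each without and with LPS (1 ug/ml), the bacterial lipopolysaccharide that matures dendritic cells. Every condition had 1 BALB/c culture (replicate 1) and 1 BL6 culture (replicate 2). The retinoids were present from the start of culture, and the time of LPS exposure was not given in the sources used here. GM-CSF was common to all 12 cultures and no genetic change is labelled. The labels do not say whether cultures of a strain came from separate animals. With 1 culture per strain and condition, no replicate cultures gave a spread. The p-values rest on how far these cultures depart from the fitted strain and treatment effects. Strain cannot be told apart from anything else that followed the replicate number.

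Eosinophil-type ribonucleases were first known as granule proteins of eosinophils, where their human relatives damage parasites and bind viral RNA. In mice the family has expanded into many close copies, and macrophages of the lung and alternatively activated macrophages also make several of them. Angiogenin, the product of Ang, cuts transfer RNA in stressed cells and stimulates vessel growth. Rnase4 is the most conserved secreted member of the family, and it is transcribed from the same start region as Ang.

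The genes with an entry in the RefSeq table lie on chromosome 14 (GRCm38.p6), in the order Ear2, Rnase4, Ang and Rnase2a, and Ang and Rnase4 overlap. The 250 bases before the start of Rnase2a and of Rnase2b, its closest relative by this sequence among those compared, are shown because both genes were low with Ro. The Rnase2a window is chr14:51256113-51256362 on the minus strand and the Rnase2b window is chr14:51162010-51162259 on the plus strand. Capitals mark the 6 stretches of 12 or more bases that are identical in both without a gap, 140 bases in all.
Rnase2a: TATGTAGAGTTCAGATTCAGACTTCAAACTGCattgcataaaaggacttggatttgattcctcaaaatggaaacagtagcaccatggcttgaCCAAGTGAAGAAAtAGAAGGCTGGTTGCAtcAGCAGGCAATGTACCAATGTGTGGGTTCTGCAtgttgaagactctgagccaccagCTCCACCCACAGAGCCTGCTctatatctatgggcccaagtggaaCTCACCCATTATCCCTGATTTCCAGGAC
Rnase2b: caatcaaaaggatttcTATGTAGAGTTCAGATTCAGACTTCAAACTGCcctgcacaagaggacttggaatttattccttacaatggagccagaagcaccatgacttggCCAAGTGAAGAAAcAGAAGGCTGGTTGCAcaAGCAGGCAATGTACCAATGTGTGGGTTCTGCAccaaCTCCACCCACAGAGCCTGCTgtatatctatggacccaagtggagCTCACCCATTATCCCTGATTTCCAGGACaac
The longest shared stretch was 32 bases, and the aligned windows were 78.4% identical. The Rnase2a window was 73.9% identical to that of Ear6, 60.5% to that of Ear2 and 44.2% to that of Ang.

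For Ang and Rnase4 the table gives a start at the same base, so 1 window of 250 bases, chr14:51090827-51091076 on the plus strand, precedes both genes. Rnase4 has another start with the window chr14:51095750-51095999, also on the plus strand. Both windows are shown because the pair is compared across strains and RA, and no letters are capitalised.
Ang and Rnase4: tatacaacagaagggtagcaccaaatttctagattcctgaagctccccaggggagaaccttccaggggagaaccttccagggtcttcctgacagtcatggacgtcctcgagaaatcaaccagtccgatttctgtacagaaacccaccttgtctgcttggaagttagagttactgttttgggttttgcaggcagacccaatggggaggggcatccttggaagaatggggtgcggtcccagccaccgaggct
Rnase4: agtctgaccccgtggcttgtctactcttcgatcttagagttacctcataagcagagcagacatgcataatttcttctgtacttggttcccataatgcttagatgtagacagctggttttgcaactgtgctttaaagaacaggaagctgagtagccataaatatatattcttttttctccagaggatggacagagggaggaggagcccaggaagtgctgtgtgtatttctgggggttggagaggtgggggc
None of the 4 windows printed here held, on either strand, the exact sequence AGGTCA (a core element bound by retinoid receptors). None held that element in direct repeat 5 bases apart (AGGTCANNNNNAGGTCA), or TTCNNNNGAA (the core of a STAT6 site). Variants of AGGTCA were not searched, such as AGTTCA, which stands in the Rnase2a and Rnase2b windows. The longer retinoid motif contains the shorter one, so these searches overlap. Of 32817 mouse windows of the same length, 14% held AGGTCA, 0.00914% the direct repeat and 5.85% TTCNNNNGAA.

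The values are array signals on a linear scale, and the highest of the 12 array medians, 41.8, is used as a mark of background. Array medians ran from 21.4 to 41.8. The 3' to 5' signal ratio of Gapdh, a sign of RNA integrity, lay between 0.768 and 0.842 on all arrays. Of 12 dendritic cell markers 8 lay above that mark on all arrays, among them Cd74 (12083 to 14384), H2-Ab1 (7047 to 11841) and Itgax (1013 to 6159). The other 4 were below it on some arrays, Flt3 (4.89 to 101), Zbtb46 (26.2 to 501), Cd209a (15.4 to 3379) and Itgae (13.0 to 1056). Of 14 macrophage markers 11 lay above the mark on all arrays, such as Cd68 (1037 to 10057), and Mrc1, Marco and Trem2 were below it on some, with lowest signals of 10.7, 1.44 and 3.92. The defining eosinophil markers Ccr3 and Il5ra read 12.9 or less on every array, but others of that list were brighter. P2ry14 lay between 524 and 4520, and Prg2, Siglecf, Alox15 and Adgre4 reached 1427, 1391, 1324 and 1085. Epx, Prg3 and Gata1 reached 143, 76.0 and 34.0.

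**Figure D1:**
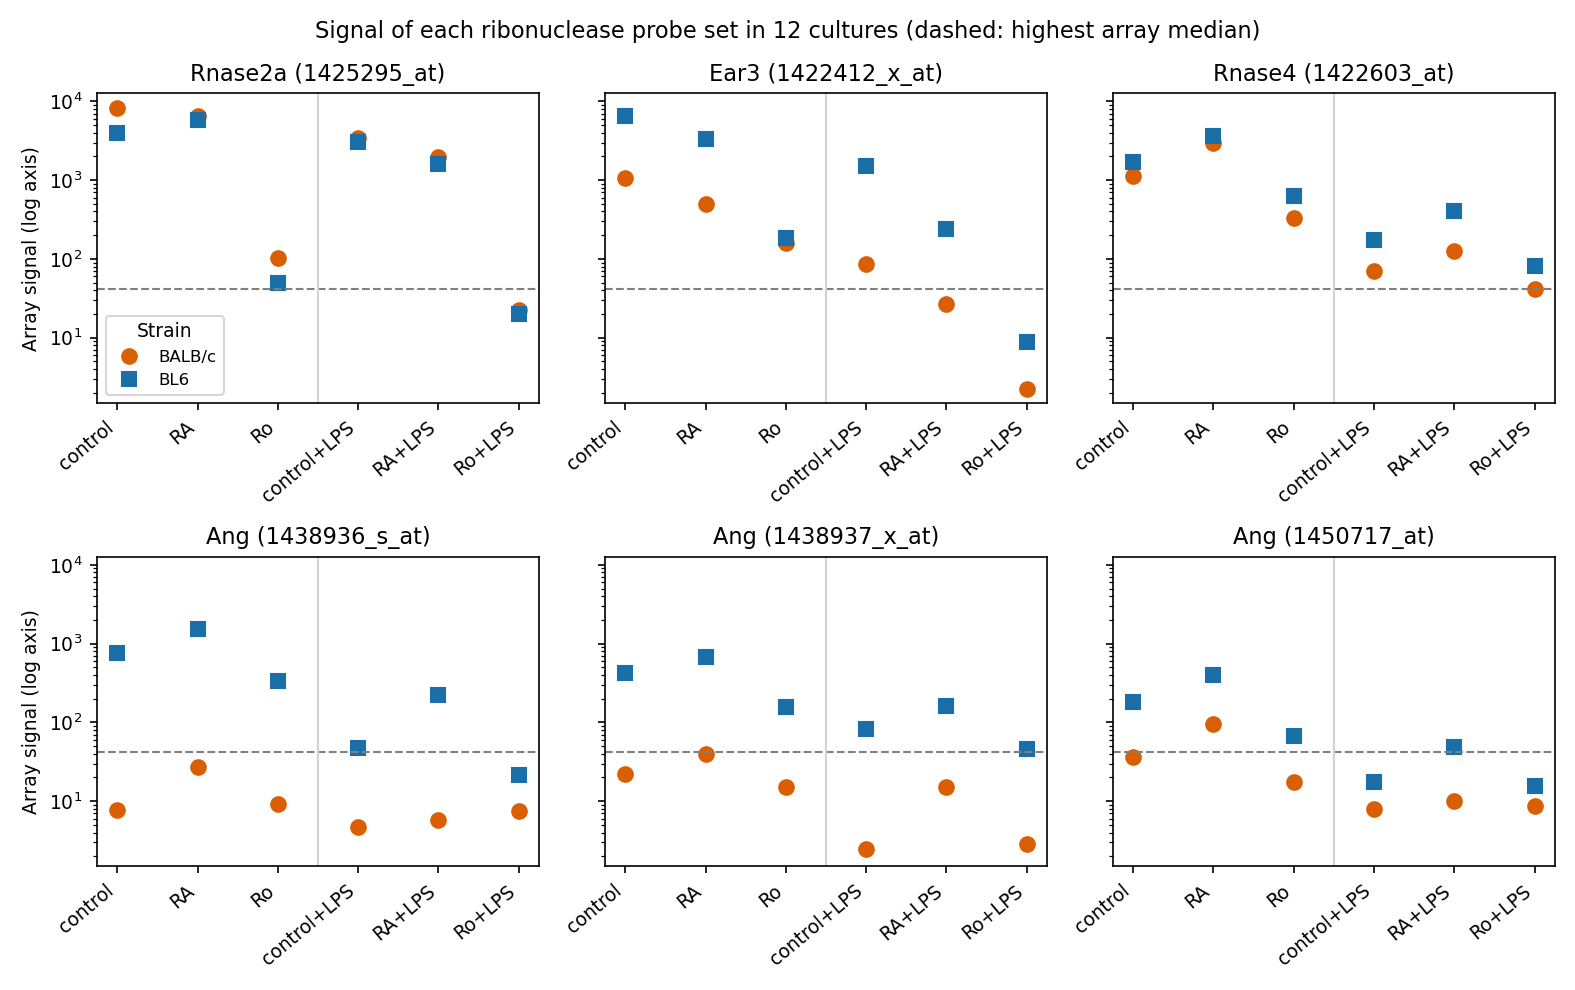
Array signal (log axis) of the 6 probe sets in the 6 conditions, with 1 point per culture, circles for BALB/c and squares for BL6, and a dashed line at the highest array median (41.8). Rnase2a falls to 103 or less on all 4 Ro arrays, and the 6 BALB/c points of the Ang probe set 1438936_s_at lie at 26.8 or less.

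Rnase2a (probe set 1425295_at), also named Ear11 and known as an attractant of macrophages, was among the brightest transcripts of the cultures without retinoid and was near background in every culture with Ro. Without LPS its signal was 8333 in BALB/c and 3948 in BL6 in control cultures, 6592 and 5772 with RA, and 103 and 49.98 with Ro. With LPS it was 3436 and 3007 in control cultures, 1988 and 1619 with RA, and 22.7 and 19.7 with Ro. The 4 Ro arrays lay below all 8 others with no overlap. In the order of levels RA and control overlapped, followed by control with LPS, RA with LPS, Ro, and Ro with LPS, each without overlap with the next. Rnase2a stood at percentile 99.4 of its array in the BALB/c control and 98.4 in the BL6 control, against 63.2 and 55.2 with Ro and 50.2 and 42.0 with Ro and LPS.

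Ear3 (1422412_x_at), one of the eosinophil-associated ribonucleases, was low with Ro as well, and it also differed between strains. Without LPS its signal was 1056 in BALB/c and 6446 in BL6 in control cultures, 497 and 3356 with RA, and 158 and 183 with Ro. With LPS it was 86.2 and 1519 in control cultures, 26.6 and 238 with RA, and 2.24 and 8.93 with Ro. BL6 was the higher strain in all 6 conditions, and the Ro range overlapped the others because BALB/c cultures with LPS were low without Ro too. Of the conditions in order of mean level, neighbours overlapped in all cases but the last, Ro with LPS, which lay below the others. The suffix x marks a probe set with probes that also match other sequences, so the value may include RNA of close copies of Ear3.

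Rnase4 (1422603_at), a ribonuclease that prefers to cut after uridine, was brightest with RA and dimmest with LPS. Without LPS its signal was 1128 in BALB/c and 1714 in BL6 in control cultures, 2945 and 3588 with RA, and 331 and 636 with Ro. With LPS it was 70.3 and 173 in control cultures, 125 and 406 with RA, and 41.5 and 81.7 with Ro. In each strain and LPS state the order was RA, then control, then Ro. Without LPS the 3 conditions did not overlap, and with LPS neighbouring conditions did.

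Ang, which encodes angiogenin, was read by 3 probe sets, all brighter in BL6 than in BALB/c in every condition. For 1438936_s_at, which stands for the gene in the tests, the BL6 signal was 764 in control cultures, 1547 with RA and 338 with Ro, and with LPS it was 47.8, 224 and 21.8. The BALB/c signal was 7.67, 26.8 and 9.12 without LPS and 4.76, 5.70 and 7.55 with LPS. All 6 BALB/c arrays were thus below the background mark, while 5 of the 6 BL6 arrays were above it. With the strains this far apart, neighbouring conditions overlapped throughout.

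The other Ang probe sets gave the same order of strains. For 1438937_x_at the BL6 signal ran from 45.7 (Ro with LPS) to 679 (RA) and the BALB/c signal from 2.45 to 39.6, with no overlap between strains. For 1450717_at the BL6 signal ran from 15.5 to 403 and the BALB/c signal from 7.99 to 95.5, and the strains overlapped. The limit given for the suffix x of Ear3 holds for 1438937_x_at as well. Whether probes of 1438936_s_at match other transcripts was not checked, so its values may include other RNA too. Only 1450717_at has neither suffix. Across the 12 arrays the 3 probe sets had correlations of 0.87 to 0.97 with each other on the log2 scale, as a description of probes that share target and libraries.

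The first comparison asked how far each gene differed with Ro from the culture without retinoid, averaged over strain and LPS state (4 arrays against 4). Differences below are on the log2(signal + 16) scale and relative to the median difference of all 12429 genes, which was 0.23 here, and they understate the change of dim genes. The difference was -6.46 ± 0.23 (SE) for Rnase2a, -4.25 ± 0.50 for Ear3, -1.39 ± 0.26 for Rnase4 and -0.63 ± 0.61 for Ang. In the same model 4.36% of all genes were called lower with Ro, and since these falls chose the genes nothing is read from that share. The arrays read whole cultures, so fewer cells of a type and less RNA per cell cannot be told apart.

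Within strain and LPS state, the Ro difference of Rnase2a was -6.22 in BALB/c and -6.15 in BL6 without LPS, and -6.60 and -6.86 with LPS. With LPS the Ro signals were below the background mark, so the added 16 limits those values. The Ear3 signals with Ro and LPS, 2.24 in BALB/c and 8.93 in BL6, were below the mark too, so the same limit holds. For Ear3 the differences were -2.71 and -5.27 without LPS and -2.61 and -6.40 with LPS, larger in BL6, where the level without Ro was higher. For Rnase4 they were -1.81 and -1.65 without LPS and -0.71 and -1.40 with LPS. All 4 pairs of Rnase4 had the same sign. For Ang (1438936_s_at) they were 0.00 and -1.38 without LPS and 0.06 and -1.21 with LPS, and the BALB/c signals of this probe set were below the background mark on all arrays. In BALB/c without LPS the other Ang probe sets read lower with Ro, 17.4 against 36.5 for 1450717_at (-0.74) and 15.2 against 22.2 for 1438937_x_at (-0.38), also below the mark.

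RA against Ro gave differences of 6.07 ± 0.23 for Rnase2a, 2.76 ± 0.50 for Ear3, 2.45 ± 0.26 for Rnase4 and 1.57 ± 0.61 for Ang (4 arrays against 4). These again describe arrays that chose the genes. Rnase2a, for which RA and control cultures overlapped, had the largest gap between the retinoid agonist and the antagonist among the 4 genes.

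Markers of other cell types moved with Ro. Of 14 macrophage markers 7 were lower with Ro and none was higher, beside 4.36% lower and 14.1% higher among all genes. Without LPS their summed signal was 66119 (BALB/c) and 65267 (BL6) in control arrays and 49411 and 52531 in Ro arrays. With LPS it was 56559 and 54641 in control arrays and 13647 and 17513 in Ro arrays. Apoe, a lipid carrier made by macrophages, was lower by a log2 difference of -4.60 ± 0.38 (limma adjusted p = 0.000119), and Trem2, a receptor of lipid-laden macrophages, by -3.05 ± 0.29 (adjusted p = 0.000356). Of 12 dendritic cell markers 3 were higher (Zbtb46, Irf4 and Ciita) and none was lower, and their sum was 46708 to 50412 in control arrays and 56138 to 59219 in Ro arrays. The part of these cell types in the falls of Rnase2a and Ear3 was not tested.

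Eosinophil markers went both ways with Ro. The counts of the lists that follow stand beside 4.36% lower and 14.1% higher among all genes. Of 10 on the array 7 were tested, of which 1 was higher with Ro (Prg2, the major basic protein) and 2 were lower (Siglecf, a lectin receptor shared with alveolar macrophages, and Adgre4, a receptor of macrophages and eosinophils). The summed signal of the 10 was 3055 to 4760 in control arrays and 614 to 4960 in Ro arrays. P2ry14, the brightest of the list by median signal, lay between 524 and 4520 and weighs heavily in these sums. The granule genes Epx and Prg3 reached 143 and 76.0 at most, and Prg2 reached 1427. In the list of 10 alternative activation genes, which holds markers induced by interleukin 4, 4 were lower with Ro and 1 was higher. Retnla differed by -5.84 ± 0.68 (adjusted p = 0.000673) and Arg1 by -5.20 ± 0.72 (adjusted p = 0.00171). Of 8 alveolar macrophage markers tested 4 were lower and 1 was higher, and of 5 mast cell and basophil markers tested 1, the protease Cpa3, was higher and none was lower.

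The comparison of RA with no retinoid shares its control arrays with the Ro comparison, so the values stand side by side and no overlap is drawn. RA did not bring any of the 4 genes past the threshold (0 of 4, against 0.00% of all genes). The averaged difference was 1.05 ± 0.26 for Rnase4 (adjusted p = 0.192), 0.94 ± 0.61 for Ang (adjusted p = 0.704), -0.38 ± 0.23 for Rnase2a (adjusted p = 0.698) and -1.48 ± 0.50 for Ear3 (adjusted p = 0.465). Before adjustment the limma p of Rnase4 and of Ear3 lay under 0.05, as did that of 1024 of all genes.

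Pair by pair 3 of the genes kept the same sign in all 4 pairs, as a description. How many of all genes do so was not counted, so no RA effect is read from these signs. Rnase4 was higher with RA in 4 of 4 pairs, by 1.36 in BALB/c and 1.13 in BL6 without LPS and by 0.76 and 0.98 with LPS. Ang (1438936_s_at) was higher in 4 of 4, by 0.84 and 1.07 without LPS and 0.12 and 1.73 with LPS, although the BALB/c signals were below background. Ear3 was lower with RA in 4 of 4, by -1.08 and -0.87 without LPS and -1.21 and -2.78 with LPS. The Ro pairs of Ear3 were lower as well. Both differences use the same control arrays, which helped choose the genes, so no overlap is read from them. Rnase2a had no single sign, at -0.35 and 0.61 without LPS and -0.73 and -1.07 with LPS.

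Summed marker signals moved with RA in the same pairs, although no single marker passed the test. The macrophage sum was higher with RA in 4 of 4 pairs, 54641 to 66119 in control arrays and 63147 to 91027 in RA arrays. The neutrophil sum was higher in 4 of 4 pairs, 1418 to 23155 against 2137 to 62840. The dendritic cell sum was lower in 4 of 4 pairs, 46708 to 50412 against 33571 to 44152. Their part in the RA differences of the ribonucleases was not tested.

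**Figure D2:**
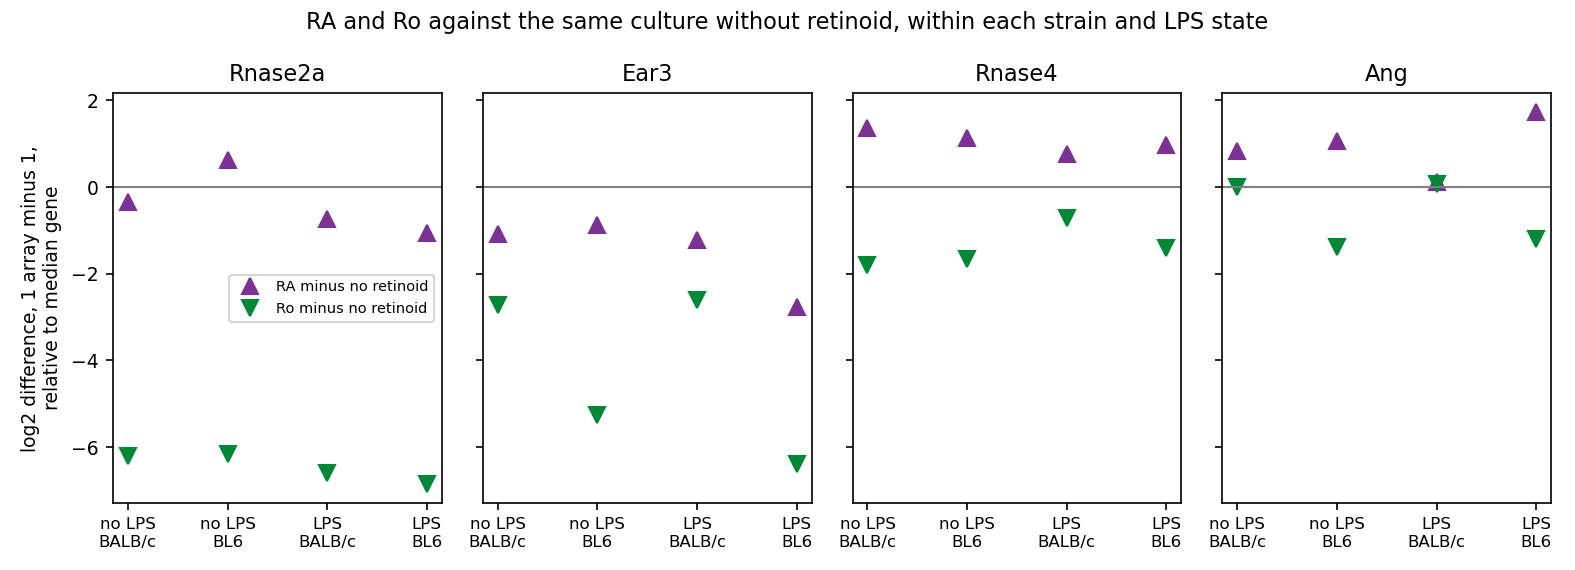
Log2 difference of RA (upward triangles) and Ro (downward triangles) from the same culture without retinoid, 1 array minus 1 array, relative to the median gene, for each strain and LPS state. Rnase2a with Ro lies between -6.15 and -6.86 in all 4 pairs, and Ear3 is below 0 with both compounds in all 4. Both compounds are set against the same control arrays, which helped choose the genes.

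Taken separately, neither LPS state gave a call for RA. Without LPS 0 of 4 genes passed (0.145% of all genes were called in either direction) and with LPS 0 of 4 (0.00%). Rnase4 came nearest without LPS, with 1.25 ± 0.30 (adjusted p = 0.179, 2 RA arrays against 2 control arrays). The RA difference did not pass a test of dependence on LPS for any of the 4 genes (0.00% of all genes), the lowest unadjusted p being 0.0326 for Rnase2a (-1.06 ± 0.38, limma adjusted p = 0.845). The test of whether RA acted differently in the strains called 0 of 4 genes too (0.00%), with an adjusted p of 0.9997 for each. With this few arrays, differences of this size could not be told from the departures that the models leave unexplained.

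LPS lowered all 4 genes, and the rule that chose them did not name LPS. The Ro and control arrays compared here did help choose the genes, so these p-values are not free of that choice. The averaged difference, with LPS minus without, was -2.88 ± 0.21 for Rnase4 (7.36-fold on this scale, adjusted p = 3.5e-07), -2.76 ± 0.41 for Ear3 (6.77-fold, adjusted p = 4.47e-05), -0.87 ± 0.19 for Rnase2a (1.83-fold, adjusted p = 9.79e-05) and -1.39 ± 0.50 for Ang (adjusted p = 0.00764), over 6 arrays against 6. With LPS 47.9% of all genes were called lower, so a lower call with LPS was common and is not particular to these genes. With quantile normalization 27.2% were called lower, and all 4 genes remained so.

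The median difference of all genes with LPS was -0.41, and the p-values test the difference before this median is taken off. Rnase4 lay lowest among the 4, and its fall was seen in all 6 pairs, from -2.10 (Ro, BALB/c) to -3.81 (RA, BALB/c). Ear3 fell in all 6 pairs, from -1.58 (control, BL6) to -3.50 (RA, BL6). Rnase2a lay below the median gene in 5 of 6 pairs, and its BL6 control pair, 3948 against 3007, was 0.11 above the median gene.

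For Ang the probe sets showed different falls by strain. In BL6 the 3 pairs of 1438936_s_at differed by -3.11 in control cultures, -2.47 with RA and -3.01 with Ro, whereas in BALB/c, with signals at background, they differed by 0.38, -0.40 and 0.40. In BALB/c 1450717_at read 95.5 with RA and 10.1 with RA and LPS (-1.51), a fall from above the background mark. In the same strain 1438937_x_at lay below the median gene in all 3 pairs, by -0.48 in control cultures, -0.25 with RA and -0.23 with Ro, with all signals under the mark. For 1438936_s_at the difference between strains in the LPS effect was 3.01 ± 0.62 (unadjusted p = 0.00107, limma adjusted p = 0.169) and did not pass the threshold. None of the 4 genes did, and 0.113% of all genes were called in that test. The BALB/c signals of 1438936_s_at were at background without LPS, where a fall cannot be read, so nothing is read from this difference. Fitted on their own, 1438937_x_at and 1450717_at gave 1.26 ± 0.39 and 1.25 ± 0.50 (limma adjusted p = 0.382 and 0.482). The other Ang probe sets, tested each on its own, were also lower with LPS, by -0.96 ± 0.24 for 1438937_x_at (adjusted p = 0.000355) and by -1.30 ± 0.28 for 1450717_at (adjusted p = 0.000211). Without strain in the model the call of Ang was lost (adjusted p = 0.167).

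In control cultures alone, 3 of the 4 genes were lower with LPS (2 arrays against 2), where 37.7% of all genes were. Rnase4 differed by -2.94 ± 0.30 (adjusted p = 3.26e-05), Ear3 by -2.21 ± 0.73 (adjusted p = 0.0109) and Rnase2a by -0.31 ± 0.27 (adjusted p = 0.0278), whose difference before the median was taken off was -0.83. Ang differed by -1.37 ± 0.91 (adjusted p = 0.111). The count rested on single arrays. Without the BALB/c control with LPS only Rnase4 passed, Ear3 having an adjusted p of 0.133 and Rnase2a of 0.163. Rnase2a was also lost without the BALB/c control (0.336) or the BL6 control with LPS (0.0603), and Ear3 without the BL6 control (0.0612).

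In RA cultures 3 of the 4 genes were lower with LPS, where 28.6% of all genes were. Rnase4 differed by -3.34 ± 0.30 (10.1-fold, adjusted p = 2.61e-05), Ear3 by -3.26 ± 0.73 (9.57-fold, adjusted p = 0.00347) and Rnase2a by -1.37 ± 0.27 (2.59-fold, adjusted p = 0.000887). The RA arrays with and without LPS did not overlap for these 3 genes. The share of all genes without such overlap was not counted, so nothing is read from it. Ang differed by -1.44 ± 0.91 (adjusted p = 0.139). In Ro cultures, given as a description, the differences were -2.32 for Rnase4, -2.78 for Ear3, -0.91 for Rnase2a and -1.32 for Ang.

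Neutrophil markers moved with LPS. All 11 on the array were lower, beside 47.9% lower and 11.0% higher among all genes, and their summed signal was 11544 to 62840 on arrays without LPS and 487 to 7140 on arrays with it. Of the 14 macrophage markers 8 were lower and 2 higher, of the 7 eosinophil markers tested 5 were lower and none higher, and of the 12 dendritic cell markers 5 were lower and 2 higher. Of the alternative activation genes 7 were lower and 2 higher, of the alveolar macrophage markers tested 5 and 1, and of the mast cell and basophil markers tested 3 and 1. The summed macrophage signal was 49411 to 91027 without LPS and 13647 to 74678 with it. The part of these cells in the LPS falls was not tested.

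**Figure D3:**
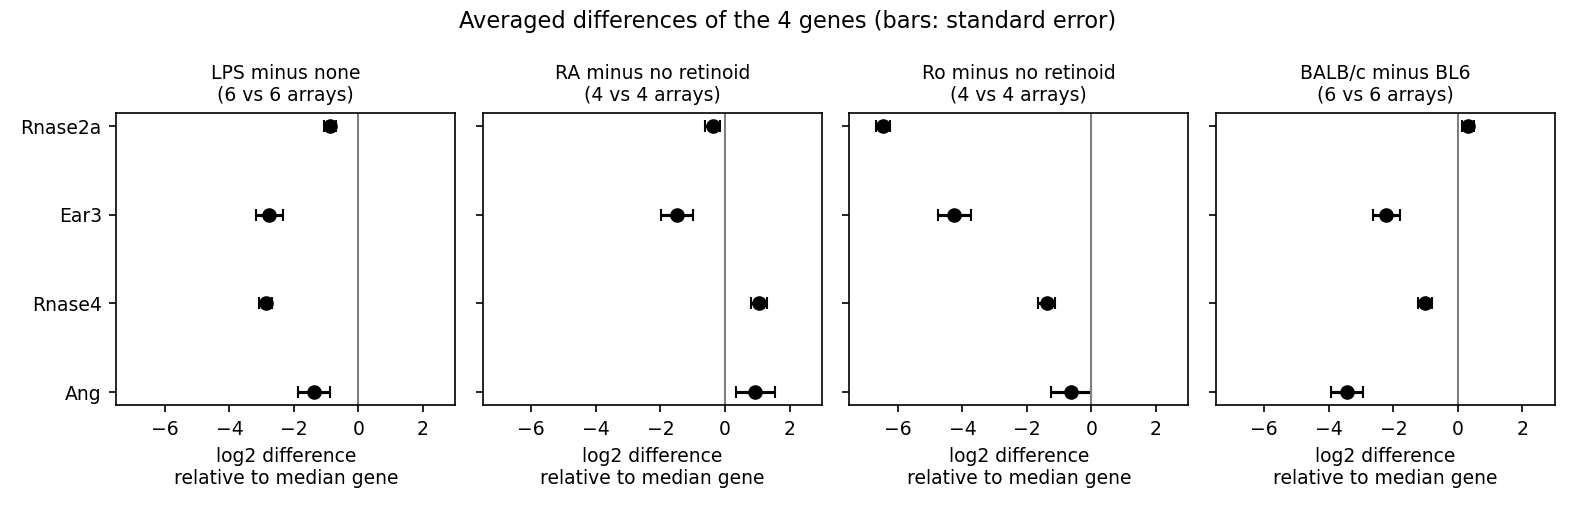
Log2 difference of the 4 genes (points) with its standard error (bars) for LPS, RA, Ro and strain, relative to the median gene, from 1 model of 12 arrays. All 4 genes lie below 0 with LPS and with Ro, while Rnase4 and Ang lie above 0 with RA (1.05 and 0.94).

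Between strains, Ang as read by 1438936_s_at had the largest difference of the 4 genes and Rnase2a the smallest. This is given as a description because the strain difference of Ang was part of the choice. Whether the probes match the sequences of both strains equally was not checked, so these are gaps in signal. BALB/c minus BL6 was -3.45 ± 0.50 for Ang, -2.22 ± 0.41 for Ear3, -1.02 ± 0.21 for Rnase4 and 0.31 ± 0.19 for Rnase2a (6 arrays against 6, median of all genes 0.14). With each probe set fitted on its own, the other Ang probe sets gave -2.87 ± 0.24 (1438937_x_at) and -1.37 ± 0.28 (1450717_at). The gap of 1450717_at was smaller than that of Ear3, so the rank of Ang depends on the probe set. In the same model 3.88% of genes were called lower in BALB/c, from which nothing is read here. Rnase4, whose start region is that of Ang printed above, was lower in BALB/c in all 6 conditions, by -0.62 (Ro with LPS) to -1.57 (RA with LPS).

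The strain gap of Ang read by 1438936_s_at was narrower where the BL6 level was low. It was -5.36 in control cultures, -5.56 with RA and -3.95 with Ro, and with LPS it was -1.84, -3.45 and -0.54. The BL6 signal ranged from 1547 down to 21.8 over the same conditions, while the BALB/c signal stayed at background. For 1450717_at, the probe set with the brightest BALB/c signals, the gap was -2.22 in control cultures and -2.28 with RA. In BALB/c this probe set read 36.5 in the control culture, 95.5 with RA and 17.4 with Ro.

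**Figure D4:**
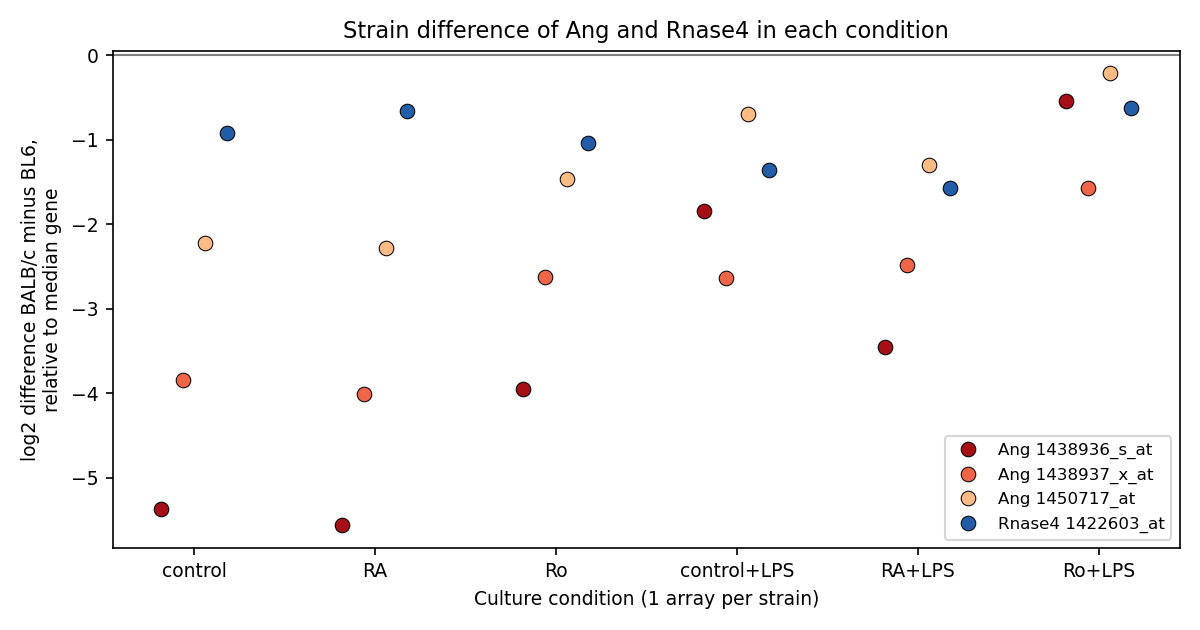
Log2 difference of BALB/c minus BL6 (1 array each, relative to the median gene) for the 3 Ang probe sets and Rnase4 in the 6 conditions. The gap of 1438936_s_at runs from -5.56 with RA to -0.54 with Ro and LPS, and Rnase4 stays between -0.62 and -1.57.

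Without LPS, the strain gap of Ear3 was wide without Ro and narrow with it. It was -2.91 in control cultures and -3.09 with RA, and -4.13 and -2.56 in the same cultures with LPS. With Ro it was -0.33, at signals of 158 in BALB/c and 183 in BL6. With Ro and LPS it was -0.31, but those signals (2.24 and 8.93) lay below the background mark, so the added 16 limits that gap. Rnase2a was higher in BALB/c by 0.75 in control cultures and by 0.72 with Ro, and within 0.31 of BL6 in either direction in the other 4 conditions.

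Of 23 other family genes and partners listed, 9 had a probe set and 6 were tested. With LPS, where 47.9% of all genes were lower, 2 of the 6 were lower, Rnase6 (-3.66 ± 0.35, adjusted p = 2.36e-06), an antimicrobial ribonuclease of macrophages, and Rnase2b (-0.29 ± 0.26, adjusted p = 0.0318), and none was higher. With Ro, where 4.36% of all genes were lower, 1 was lower, Rnase2b (-1.61 ± 0.31, adjusted p = 0.0134), whose signal ran from 0.887 to 117, and with RA none passed. Rnase6 did not pass with Ro (-0.09 ± 0.43, adjusted p = 0.848) and lay between 1.73 and 929. Rnh1, the inhibitor that binds and blocks secreted ribonucleases, lay between 3482 and 6423 on all arrays and passed in no comparison, and Plxnb2, the angiogenin receptor, lay between 84.8 and 667 and passed in none. Ang2, Ang3 and Ang4 reached 23.9 at most and were not tested.

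Nucleases outside the family were taken as a further list. Of 9 tested, none was higher or lower with Ro (14.1% and 4.36% of all genes) or with RA (0.00% called). With LPS 7 were lower and 1 higher, beside 47.9% and 11.0% of all genes. The largest fall with LPS among them was that of Rnaseh2c, a subunit of ribonuclease H2 (-1.69 ± 0.18, adjusted p = 1.85e-06). Dnase1l3, a secreted DNase, was the 1 that was higher (1.73 ± 0.31, adjusted p = 0.00287), with a median signal of 4.28. Rnaseh2b passed as lower although its difference relative to the median gene was 0.02. The median of the 9 was -0.52 with LPS and 0.07 with Ro, relative to all genes.

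Among 16 factors with a known part in making these ribonucleases or in alternative activation, 3 were lower with Ro and 1 was higher, beside 4.36% and 14.1% of all genes. Cebpb, a myeloid transcription factor, was lower by -1.99 ± 0.13 (adjusted p = 3.19e-05), Csf2ra, the GM-CSF receptor alpha chain, by -0.96 ± 0.20 (adjusted p = 0.0260) and Pparg, a nuclear receptor of lipid handling, by -0.92 ± 0.19 (adjusted p = 0.0282). Irf4, a factor of dendritic cells and alternative activation, was higher by 1.42 ± 0.32 (adjusted p = 0.00758). Stat6, which carries the interleukin 4 signal, lay between 1067 and 2093 and passed in none of the 4 averaged comparisons. Rara, the receptor that Ro blocks, did not pass with Ro (0.37 ± 0.26, adjusted p = 0.123) or RA (0.05, adjusted p = 0.971). With LPS 9 of the 16 were lower, a share near the 47.9% of all genes, and 1, Cebpb, was higher. Their median relative to all genes was -0.39 with Ro and -0.45 with LPS.

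The genes most like each ribonuclease across the 12 arrays are given by their correlation on the log2 scale, as a description over arrays that share conditions. For Rnase2a they were Pld3 (r = 0.96), Aifm2 (0.94) and Apoe (0.94). For Ear3 they were Fuom (0.93), Rnase2b (0.93) and Vwf (0.92). For Rnase4 they were Myo7a (0.98), Gda (0.98) and Msra (0.98), and for Ang they were 2610507I01Rik (0.94), Arsk (0.93) and Dcdc2b (0.93). Among the 4 genes themselves, Ear3 and Rnase4 were closest (0.80), and Rnase2a and Ang (1438936_s_at) were least alike (0.20). Rnase4 and Ang had 0.64 with 1438936_s_at and 0.90 with 1450717_at.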

How the data were processed

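Total RNA of 12 cultures was read on 12 single-colour Affymetrix arrays. The deposited table holds the authors' probe set intensities on a linear scale, for which the submitters' processing notes name MAS5 without a version. Scaling target and detection calls are not given in the sources used here. The platform table gives 1 gene for 34945 of the 45101 probe sets. It gives several for 932 and no gene for 9160, and the other 64 are controls. Annotation symbols are those of the platform table.

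After adding 16, signals were put on the log2 scale with no further scaling. Probe sets above the median of their array on 2 or more arrays were retained, and the kept probe set of highest mean stood for a gene, which left 12429 genes. limma 3.58.1 in R 4.3.3 (lmFit, eBayes with intensity trend) was fitted to all 12 arrays, with strain as replicate block, and p-values were adjusted by Benjamini and Hochberg (threshold 0.05). Retinoid, LPS and strain entered additively for averaged contrasts, and others came from a model of 6 conditions plus strain, or with an added interaction. Replicate number is strain: cultures of the same strain deviated together in all 15 pairs of conditions (r = 0.304 to 0.699). No arrays were identical. The fit was also run on simulated data with independent noise and no strain effect, unlike these arrays, and nothing is read from it here. The number of arrays limits the precision.

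The genes, gene lists and marker lists were chosen with earlier results of these data known. At most 6 genes per list, those of smallest p, were to be named, and in addition some low or stable genes were named after their values were seen. Alternatives were quantile normalization, plain log2, 64 added, no filter, each probe set on its own, no trend, no replicate block, averaging from the 6-condition model, and leaving out each array. Promoters are RefSeq sequences (GRCm38.p6). The array table names no build, so gene coordinates were not assigned to probe sets. Python 3.11.15, pandas 2.3.3 and matplotlib 3.10.9 were used for sequences and figures.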

Additional observations from a re-analysis of the deposited data

How the results depend on the processing

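The LPS calls of Rnase2a, Ear3 and Rnase4 averaged over conditions held under all 20 alternatives, and that of Ang under 19, the exception being no replicate block (-1.39, adjusted p = 0.167). None of the 4 genes passed with RA under any alternative (lowest adjusted p 0.073, Rnase4). Over all genes, averaged RA gave 0 calls, 4 with quantile normalization, 38 from the model of 6 conditions and up to 2 when an array was left out. For LPS in control cultures the count of genes past the threshold was 1 with no replicate block and 1 to 3 when each array was left out. With no replicate block Ear3 was also lost in RA cultures (adjusted p = 0.0742), and the block changed no other call.

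Uncalled interactions changed sign. Ear3 in strain by LPS was 0.20 with 64 added, and Rnase4 in strain by RA was -0.036 with 64 added and -0.017 with no filter. When each array was left out, RA by LPS ran from -2.20 to 0.11 for Ear3 and from -1.34 to 1.20 for Ang, strain by LPS from -0.64 to 0.036 for Rnase2a and from -0.91 to 0.55 for Ear3, and strain by RA from -0.86 to 0.26 for Rnase2a, from -0.55 to 0.59 for Rnase4 and from -1.97 to 0.16 for Ang.

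Differences near background depended on the constant added. With plain log2 and with 64 added, the Ro difference was -7.06 and -5.50 for Rnase2a and -5.41 and -3.34 for Ear3, and the strain difference of Ang was -4.81 and -2.30. Quantile normalization moved the share of LPS calls that were lower from 81.3% to 51.0%, of Ro calls from 23.6% to 50% and of strain calls from 25.3% to 51.9%. Rnase2a and Ear3 with Ro and LPS, and Ang in BALB/c, lie at background, which limits how large their differences can be read.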
